A study of Homo sapiens with 12 samples.

Results

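Sensors of cytosolic and endosomal nucleic acids, and the adaptors that carry their signal, were followed in cholangiocarcinoma cells exposed to a DNA methyltransferase inhibitor, a PARP inhibitor or both. The group holds 10 of the 60651 genes in the table, chosen by symbol: RIGI, IFIH1, DHX58, TLR3, CGAS, STING1, MAVS, IRF3, IRF7 and ZBP1. IRF7 was already known from an earlier look at these data to depart from additivity in EGI-1, so its values in every contrast that uses EGI-1 libraries are a description and carry no test. All 10 genes were matched by their Ensembl identifiers, and all 10 passed the filter on low counts in both lines.

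EGI-1 and HUCCT1 are established human cholangiocarcinoma cell lines, described in the labels as wild type and grown with 10% serum, EGI-1 in DMEM and HUCCT1 in RPMI1640. EGI-1 received vehicle, 0.5 µM decitabine, 200 nM talazoparib or the 2 drugs together, and HUCCT1 received vehicle or 1 µM decitabine. RNA was taken at 72 h from each of the 6 conditions as 2 libraries, 12 in all. Decitabine is a nucleoside analog that traps DNA methyltransferases, and talazoparib inhibits PARP enzymes and holds them on DNA. The labels give vehicle as DMSO, and nothing says that the 2 libraries of a condition came from separate cultures, so p-values measure only the spread between these libraries.

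RIG-I (RIGI) and MDA5 (IFIH1) are helicases that bind double-stranded RNA in the cytosol, and both signal through MAVS on mitochondria. LGP2 (DHX58) belongs to the same family, binds RNA but lacks the signalling domains, and modulates the other two. TLR3 reads double-stranded RNA in endosomes, cGAS (CGAS) reads double-stranded DNA and makes a cyclic dinucleotide that activates STING (STING1), and ZBP1 binds Z-form nucleic acids and can lead to necroptosis. These routes converge on IRF3, which most cells hold ready, and on IRF7, which interferon itself induces, and the pair switches on type I interferon genes. DNA methyltransferase inhibitors are known to raise transcripts of silenced repeats, whose double-stranded RNA can engage RIG-I-like receptors and TLR3 in other cancer cells.

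Positions are on GRCh38, from the GENCODE annotation. Among the RNA sensors, RIGI (ENSG00000107201.11) spans chr9:32455302-32526208 on the minus strand, IFIH1 (ENSG00000115267.9) spans chr2:162267074-162318684 on the minus strand, DHX58 (ENSG00000108771.13) spans chr17:42101404-42112714 on the minus strand and TLR3 (ENSG00000164342.13) spans chr4:186068911-186088073 on the plus strand. CGAS (ENSG00000164430.17) spans chr6:73413515-73452297 and ZBP1 (ENSG00000124256.15) chr20:57603846-57620576, both on the minus strand. The adaptors MAVS (ENSG00000088888.18, chr20:3846799-3876123, plus strand) and STING1 (ENSG00000184584.13, chr5:139475533-139482935, minus strand) and the factors IRF3 (ENSG00000126456.16, chr19:49659569-49665875, minus strand) and IRF7 (ENSG00000185507.21, chr11:612553-615983, minus strand) complete the group. RIGI shares 43.2% of its exonic bases with a readthrough gene on the same strand that held 0 to 8 counts in every library, and how reads of the shared part were assigned is not stated. IRF3 shares 19.3% of its exonic bases with BCL2L12 and CGAS 4.31% with DDX43, each on the opposite strand. Whether counting used the strand is not stated, so reads of these pairs cannot be told apart.

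RefSeq promoter windows (GRCh38.p14, 250 bases before to 50 after the gene start) were matched for 4 of the 10 genes, IFIH1, TLR3, RIGI and MAVS, and they are shown because TLR3 and MAVS moved with decitabine in HUCCT1, beside the 2 helicase sensors that signal through MAVS. The stretch of each window outside annotated exons is printed 5′ to 3′ on the gene's strand, at chr2:162318685-162318883 (minus), chr4:186069143-186069171 (plus), chr9:32526209-32526446 (minus) and chr20:3846584-3846798 (plus). Of the 300 bases of the TLR3 window, 295 lie in annotated exons of the gene, whose GENCODE start is near the upstream end. Only 29 bases are therefore given there, chosen around its match to GAAANNGAA, which lies at the RefSeq start. Capitals mark matches, on either strand, to GAAANNGAA (the core of an interferon-stimulated response element) or GGGCGG (a GC box).
IFIH1: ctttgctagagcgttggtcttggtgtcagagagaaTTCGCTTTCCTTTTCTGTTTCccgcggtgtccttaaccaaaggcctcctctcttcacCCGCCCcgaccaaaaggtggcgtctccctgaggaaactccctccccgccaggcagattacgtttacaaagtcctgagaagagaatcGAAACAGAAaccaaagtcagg
TLR3: aagctttactTTCACTTTCgagagtgccg
RIGI: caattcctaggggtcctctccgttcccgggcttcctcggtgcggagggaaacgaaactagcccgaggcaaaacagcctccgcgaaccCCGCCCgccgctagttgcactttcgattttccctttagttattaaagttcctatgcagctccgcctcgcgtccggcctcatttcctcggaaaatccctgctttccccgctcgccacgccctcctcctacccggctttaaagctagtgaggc
MAVS: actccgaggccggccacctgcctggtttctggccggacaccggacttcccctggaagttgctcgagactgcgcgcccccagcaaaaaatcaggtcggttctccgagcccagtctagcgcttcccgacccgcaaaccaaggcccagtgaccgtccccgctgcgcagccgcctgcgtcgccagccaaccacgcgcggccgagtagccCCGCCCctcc

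The whole IFIH1 window of 300 bases held 4 matches to the response element, of which 3 overlap each other, and the TLR3 window held 1. No match to it was found in the RIGI and MAVS windows, which says only that these letters are not in the windows. Of 35116 RefSeq promoters of the same length, 8.11% held at least 1 match. The gamma-activated site TTCNNNGAA, held by 7.66% of promoters, was matched at 2 positions in TLR3 and at none in the other 3 windows. A GC box, held by 45% of promoters, was present in all 4 windows, at 3 positions in MAVS and at 1 in each of the others. CpG dinucleotides, the sites on which DNA methyltransferases act, numbered 34 in MAVS, 27 in RIGI, 12 in IFIH1 and 5 in TLR3, against a median of 14 over all promoters. The ratio of observed to expected CpG was 1.02 in RIGI, 0.913 in MAVS, 0.630 in IFIH1 and 0.418 in TLR3, against a median of 0.579. The TLR3 window is almost all annotated exon, so its values are not like for like with those of the other 3 windows. Methylation was not among the files used here, and its part in the HUCCT1 changes was not tested.

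EGI-1 libraries held 23139065 to 33181930 counts and HUCCT1 libraries 32519985 to 34965627, and at this depth every member had at least 7 counts in every library. All 6 biliary markers (KRT7, KRT19, EPCAM, SOX9, KRT8 and KRT18) were above 3 counts in every condition. Their summed level was 7797 to 8735 CPM over the EGI-1 libraries, and in HUCCT1 it was 14474 to 16265 CPM in vehicle and 8850 to 10235 CPM with decitabine. CPM stands for counts relative to the effective library size, set by TMM over all 12 libraries. The second EGI-1 combination library stood apart: it held 381 counts of PTPRC and 148 of CD3E, leukocyte and T-cell genes that had at most 7 and 4 counts in the other EGI-1 libraries, and its 10 blood markers summed to 28.7 CPM against 6.94 to 9.11 CPM in the others. Combination results of the members and of the named genes are therefore given with and without that library, and the part it plays in them was not tested.

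The level of each gene before treatment was examined first, per length, as RPKM (CPM per kilobase of exonic length). The adaptor MAVS stood highest in both lines, at 36.1 ± 0.63 RPKM (SD, n = 2) in EGI-1 and 40.0 ± 3.4 RPKM in HUCCT1. In EGI-1 it was followed by CGAS (23.5 ± 1.4 RPKM) and IRF3 (20.9 ± 0.37 RPKM), in HUCCT1 by IRF3 (23.7 ± 4.0 RPKM) and CGAS (9.27 ± 0.64 RPKM). STING1 at 5.598 ± 0.17 RPKM and IFIH1 at 5.57 ± 0.26 RPKM overlapped in EGI-1, and these neighbours in the order did not differ beyond their spread. The lower part of the EGI-1 order was TLR3 (1.76 ± 0.022 RPKM), DHX58 (1.09 ± 0.15 RPKM), RIGI (0.757 ± 0.038 RPKM), IRF7 (0.402 ± 0.16 RPKM) and ZBP1 (0.0745 ± 0.045 RPKM). In HUCCT1 the order went on with STING1 (3.46 ± 0.40 RPKM), DHX58 (2.84 ± 0.037 RPKM), IFIH1 (2.60 ± 0.24 RPKM), IRF7 (2.21 ± 0.66 RPKM), TLR3 (1.12 ± 0.16 RPKM), RIGI (0.670 ± 0.0031 RPKM) and ZBP1 (0.376 ± 0.11 RPKM), where IFIH1 and IRF7 overlapped. The 3 genes at the top are thus the adaptor MAVS, the factor IRF3 and the DNA sensor CGAS. The RNA sensors sat at lower levels in either line, as did STING1, IRF7 and ZBP1. The RIGI level carries the limit given above for the exonic bases it shares with a readthrough gene.

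**Figure D1:**
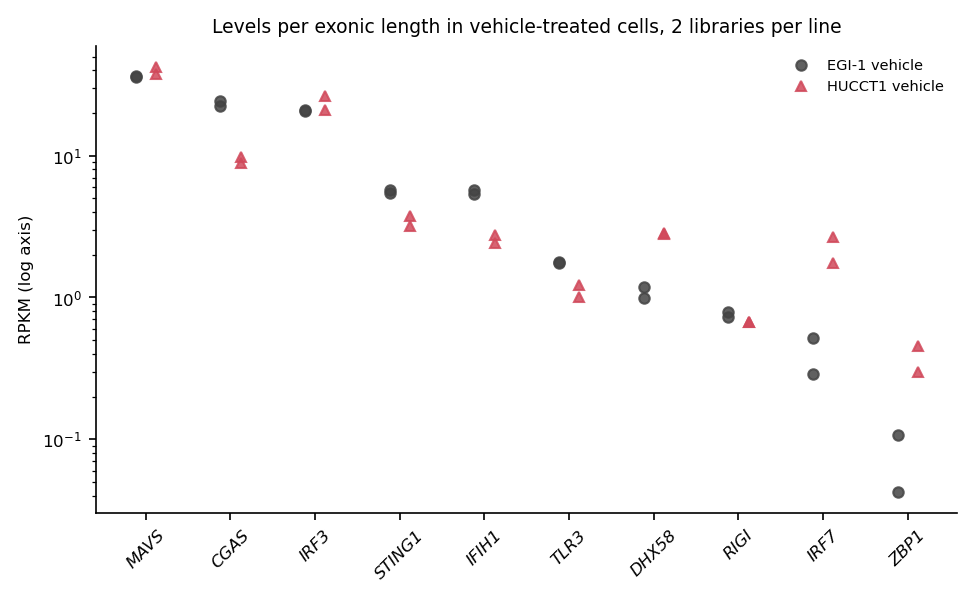
Level per exonic length (RPKM, log axis) of the 10 genes in vehicle-treated EGI-1 (circles) and HUCCT1 (triangles), 1 point per library and 2 libraries per line. MAVS lies at the top in both lines (36.1 and 40.0 RPKM on average) and ZBP1 at the bottom (0.0745 and 0.376 RPKM), while IRF7, ZBP1 and DHX58 lie higher in HUCCT1 and CGAS, IFIH1, STING1 and TLR3 lie higher in EGI-1.

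Next, the vehicle-treated lines were compared in 1 edgeR fit over all 12 libraries, with Benjamini-Hochberg adjustment over 25096 genes and a call at an adjusted p under 0.05. Of the 10 genes 7 differed, 3 higher and 4 lower in HUCCT1. IRF7 is among the 3 higher, as a description with no test. Over all genes tested 55.8% were called (28.5% higher and 27.3% lower). The share of all genes called was 43.8% to 48.3%, and 7 to 9 members were called, when each vehicle library was left out. A large share of called members is therefore what this comparison gives for genes at large. Line, medium and sequencing lane cannot be told apart here.

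IRF7, the interferon-inducible factor, held 41 and 21 counts (1.35 and 0.756 CPM) in EGI-1 vehicle and 138 and 211 counts (4.55 and 6.98 CPM) in HUCCT1 vehicle. The value in HUCCT1 was 2.44 above that in EGI-1 on the log2 scale (SE 0.32), given as a description. ZBP1 held 7 and 16 counts in EGI-1 vehicle against 49 and 74 in HUCCT1 vehicle, a log2 difference of 2.34 (SE 0.37, edgeR adjusted p = 1.29e-05). DHX58, the modulator of the helicase sensors, was at 4.56 and 3.78 CPM in EGI-1 and at 10.9 and 10.7 CPM in HUCCT1, a log2 difference of 1.38 (SE 0.15, edgeR adjusted p = 8.2e-08). All 3, like IFIH1 and TLR3, which were lower in HUCCT1, are interferon-inducible in many cell types. Of 27 interferon-stimulated readout genes tested between the lines, 11 were higher and 8 lower in HUCCT1. The same contrast called 28.5% of all genes higher and 27.3% lower.

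The DNA-sensing pair went the other way. CGAS was at 93.9 and 102 CPM in EGI-1 vehicle and at 36.8 and 40.6 CPM in HUCCT1 vehicle, lower in HUCCT1 by a log2 difference of -1.34 (SE 0.10, edgeR adjusted p = 2.71e-10). STING1 was at 26.3 and 27.5 CPM against 15.3 and 17.95 CPM, a log2 difference of -0.69 (SE 0.11, edgeR adjusted p = 1.27e-05). The RNA sensors IFIH1 (28.1 and 30.1 against 14.5 and 12.7 CPM) and TLR3 (13.3 and 13.1 against 9.23 and 7.54 CPM) were also lower in HUCCT1, with log2 differences of -1.10 (edgeR adjusted p = 9.47e-09) and -0.65 (edgeR adjusted p = 0.000572). RIGI, MAVS and IRF3 did not pass the test, at log2 differences of -0.18, 0.15 and 0.18 (edgeR adjusted p = 0.271, 0.0892 and 0.142). Without the first HUCCT1 vehicle library, MAVS (0.24, adjusted p = 0.0115) and IRF3 (0.35, adjusted p = 0.00863) were called as well. With upper-quartile scaling the median of all genes shifted by -0.12 on the log2 scale in this comparison, and the 7 called members kept their direction and their call.

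**Figure D2:**
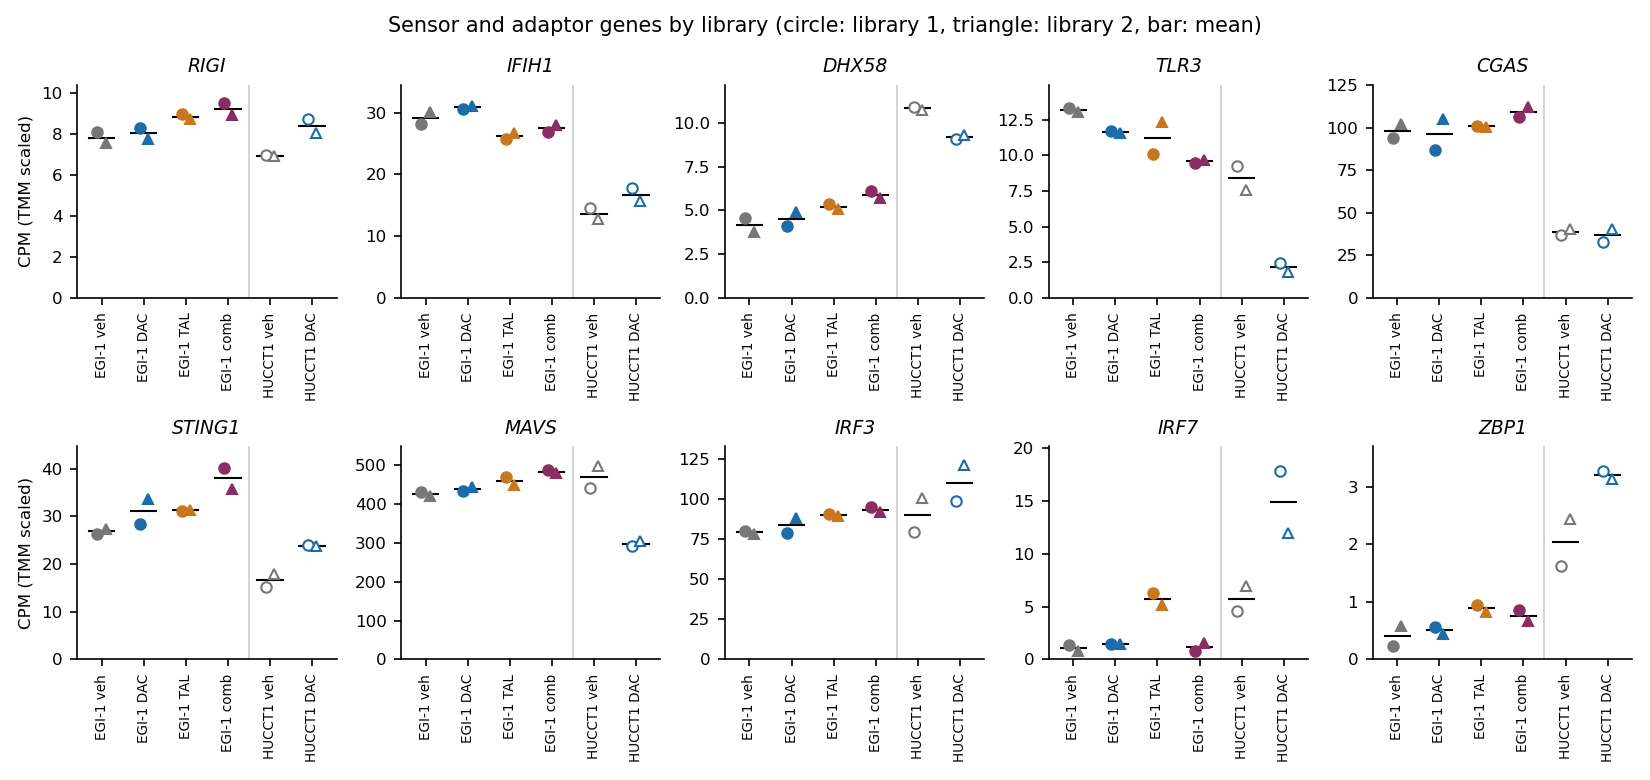
CPM (TMM scaled, linear axes from 0) of the 10 genes in each of the 12 libraries, circles for library 1, triangles for library 2 and bars for the mean of 2, with EGI-1 filled on the left and HUCCT1 open on the right of each panel. IRF7 stands at 5.13 and 6.32 CPM with talazoparib alone and at or below 1.58 CPM in the other EGI-1 conditions, and TLR3 drops in HUCCT1 from 9.23 and 7.54 CPM to 2.47 and 1.83 CPM with decitabine.

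To ask what decitabine alone does to the sensors in EGI-1, the 8 EGI-1 libraries were fitted together and 22406 genes tested. None of the 10 genes passed the edgeR test, where 0.544% of all genes did. That background rests on single libraries: it was 1.76% without the first decitabine library, 1.2% without the second, 0.101% without the first vehicle library and 0.0923% without the second, and no member was called in any of these fits. At an unadjusted p under 0.05 there was 1 member, STING1, and there were 2048 of the 22406 genes tested. STING1 was at 28.4 and 33.7 CPM against 26.3 and 27.5 CPM in vehicle (log2 0.22, SE 0.094, edgeR adjusted p = 0.487). DESeq2 called 0 members. The 95% confidence intervals limit what could have been missed for the well-counted genes: CGAS lay between -0.19 and 0.15, MAVS between -0.06 and 0.16, IRF3 between -0.06 and 0.23 and IFIH1 between -0.08 and 0.26 on the log2 scale. For IRF7 (43 and 40 counts against 41 and 21) the interval ran from -0.24 to 1.14, and for ZBP1 (17 and 12 counts against 7 and 16) from -0.65 to 1.34, so a rise of IRF7, or a change of ZBP1 in either direction, within these bounds was not detectable at this depth. RIGI (250 and 213 counts against 247 and 210), DHX58 and TLR3 had log2 values of 0.05, 0.11 and -0.17, each with an interval that includes 0.

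With talazoparib alone no member other than IRF7 passed the threshold, where 4.12% of all genes tested were called and 2.83% were called higher. The share of all genes fell to 1.74% and 2.11% without the first and the second talazoparib library, and to 1.04% and 1.16% without the first and the second vehicle library. This contrast, like that of the combination with talazoparib, shares its libraries with the departure for which IRF7 was known. IRF7 is therefore described here and not tested. The level of IRF7 went from 41 and 21 counts (1.35 and 0.756 CPM) in vehicle to 155 and 179 counts (6.32 and 5.13 CPM), with each talazoparib library above every other EGI-1 library. The log2 fold change was 2.43 (SE 0.29, 95% confidence interval 1.81 to 3.04), and leaving out each library in turn gave values from 2.08 to 2.91. Neither its fellow factor IRF3 (90.5 and 89.2 against 80.2 and 78.2 CPM, log2 0.18, edgeR adjusted p = 0.161) nor the adaptors STING1 (log2 0.22, adjusted p = 0.237) and MAVS (log2 0.11, adjusted p = 0.291) passed, although their unadjusted p-values were under 0.05. The same held for ZBP1, with 23 and 29 counts against 7 and 16 (log2 1.14, SE 0.44, edgeR adjusted p = 0.185). Of the 22406 genes tested, 3572 had an unadjusted p under 0.05. The RNA sensors had log2 values of 0.18 for RIGI, -0.15 for IFIH1, 0.32 for DHX58 and -0.23 for TLR3, and CGAS was at 0.04, all with an edgeR adjusted p of 0.372 or more. In fits of only the vehicle and talazoparib libraries, IRF3 was called too (log2 0.18, edgeR adjusted p = 0.041), where 8.7% of all genes were called.

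The combination was next compared with vehicle. By edgeR 5 of the 10 genes passed, 4 higher and 1 lower, where 18.7% of all genes tested were called, 11.1% higher and 7.61% lower. The share of all genes called was 12.5% and 10.7% without the first and the second combination library, and 8.3% and 7.76% without the first and the second vehicle library. The median log2 change was 0.20 over the members and -0.02 over all genes. STING1 rose from 26.3 and 27.5 CPM to 40.2 and 35.9 CPM, both combination libraries lying above the other 6, with a log2 fold change of 0.49 (SE 0.093, edgeR adjusted p = 0.00117). How many of all genes separate from the other libraries in this way was not counted. DHX58 rose from 4.56 and 3.78 CPM to 6.09 and 5.70 CPM (log2 0.49, SE 0.16, edgeR adjusted p = 0.0474).

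The adaptor MAVS (431 and 420 to 489 and 479 CPM) and the factor IRF3 (80.2 and 78.2 to 94.98 and 92.0 CPM) rose by small amounts, 0.18 (SE 0.052, edgeR adjusted p = 0.0232) and 0.23 (SE 0.067, edgeR adjusted p = 0.0229) on the log2 scale. TLR3, the endosomal sensor, fell from 13.3 and 13.1 CPM to 9.48 and 9.68 CPM (log2 -0.47, SE 0.12, edgeR adjusted p = 0.0108), the lowest values of the 8 libraries. How many of all genes have their lowest values there was likewise not counted. In bulk RNA, fewer cells that express a gene and less of its RNA per cell cannot be told apart. RIGI (log2 0.23), IFIH1 (log2 -0.09), CGAS (log2 0.15) and ZBP1 (log2 0.91, 21 and 20 counts) did not pass, with edgeR adjusted p-values of 0.228, 0.499, 0.206 and 0.183.

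STING1 was called in all 13 alternative analyses. TLR3 was called in 9 of 13, MAVS and IRF3 each in 8 and DHX58 in 3, and leaving out any 1 of the vehicle or combination libraries left STING1 as the only called member. Without the second combination library, STING1 was at 0.58 (edgeR adjusted p = 0.003), DHX58 at 0.54 (0.113), TLR3 at -0.48 (0.0577), MAVS at 0.20 (0.0747) and IRF3 at 0.26 (0.0667). The genes that did not pass were then at 0.28 for RIGI (0.294), -0.12 for IFIH1 (0.541), 0.12 for CGAS (0.53) and 1.10 for ZBP1 (0.224). With upper-quartile scaling the calls over all genes went from 2489 higher and 1705 lower to 2177 and 2244, and 2 members, STING1 and TLR3, remained called. The summed level of 6 endothelial and fibroblast markers moved too, from 49.8 and 50.1 CPM in vehicle to 72.8 and 78.3 CPM in the combination, and its part in the result was not tested.

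IRF7 did not follow the other factor. The combination libraries held 19 and 48 counts (0.777 and 1.58 CPM), which overlapped vehicle (log2 0.18, SE 0.34, 95% confidence interval -0.54 to 0.89), and the value was -0.45 without the second combination library.

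**Figure D3:**
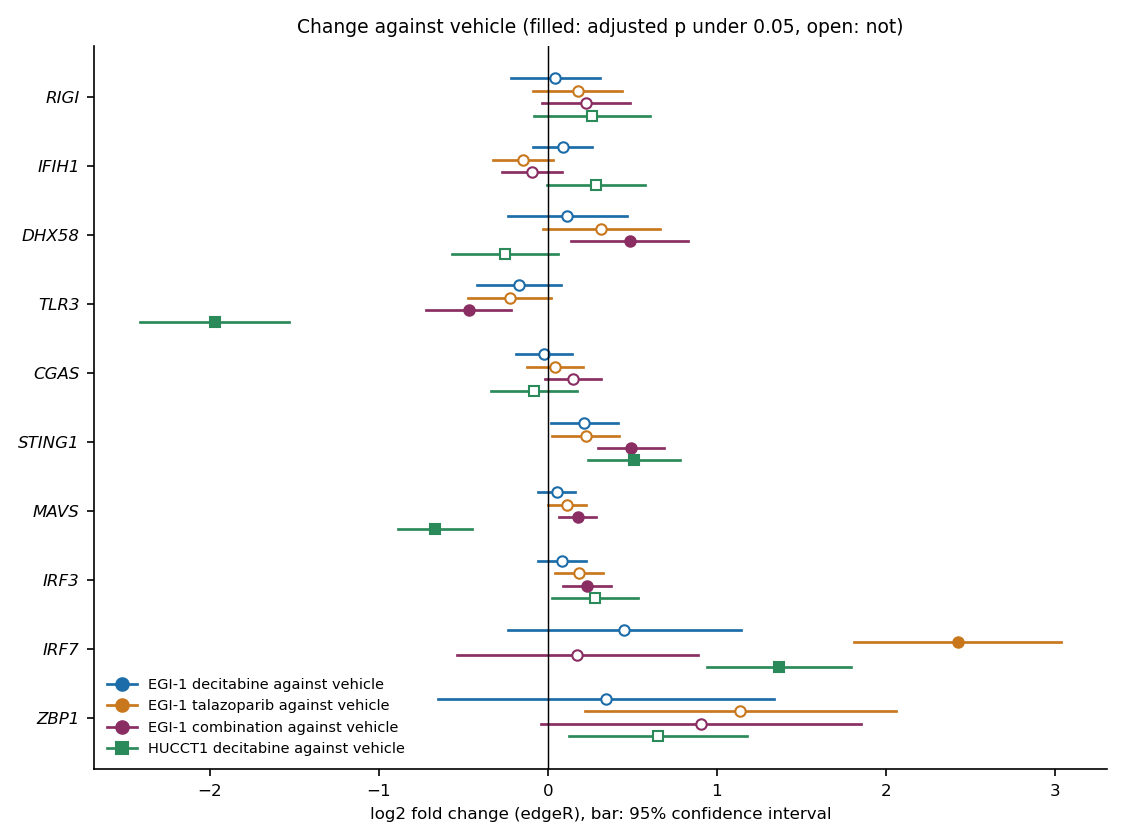
Log2 fold change against the vehicle of the same line (edgeR, bars are 95% confidence intervals) for the 10 genes, with filled symbols for an adjusted p under 0.05, circles for EGI-1 and squares for HUCCT1. IRF7 stands out with talazoparib alone (2.43) and is near 0 in the combination (0.18), while TLR3 (-1.97) and MAVS (-0.67) lie lowest in HUCCT1 with decitabine.

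The addition of each drug to the other was tested within the same EGI-1 fit, with contrasts that share the combination libraries. Adding talazoparib to decitabine gave 7 members an unadjusted p under 0.05, as it did 4784 of the 22406 genes tested. Past the edgeR threshold on the adjusted p were 0 of the 10 genes, where 7.68% of all genes were called. The share of all genes was 4.63% and 3.63% without the first and the second combination library. The lowest adjusted p among them was that of STING1 (40.2 and 35.9 against 28.4 and 33.7 CPM, log2 0.28, SE 0.093, edgeR adjusted p = 0.0801). This count depends on the second decitabine library, and without that library the share of all genes called was higher too. The log2 values were then 0.32 for CGAS, 0.41 for STING1 and 0.23 for IRF3. Without the second combination library none was called, with STING1 at 0.36 (edgeR adjusted p = 0.0937) and the others at an adjusted p of 0.263 or more.

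Adding decitabine to talazoparib took no member other than IRF7 past the threshold, where 1.92% of all genes were called and 0.567% were called lower. The share of all genes was 0.642% without the second combination library and 0.687% and 0.469% without the first and the second talazoparib library. As a description with no test, the counts of IRF7 were 155 and 179 with talazoparib and 19 and 48 with both drugs. Its log2 fold change was -2.25 (SE 0.29, 95% confidence interval -2.86 to -1.64), and -2.87 without the second combination library. The other 9 members had log2 values between -0.24 (TLR3) and 0.27 (STING1) with edgeR adjusted p-values of 0.184 or more, and between -0.25 (TLR3) and 0.36 (STING1) without that library, with 0.246 or more.

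An interaction test asked whether both drugs together moved a gene by more or less than their separate effects add up to on the log2 scale. IRF7 was known to depart when the group was put together, so its value is given as a description: -2.70 (SE 0.44, 95% confidence interval -3.62 to -1.78), in a comparison where 36 genes in all (0.161%) were called and 0.152% were called below the sum (0.359% called in all without the first decitabine library). The value was between -3.33 and -2.31 when each of the 8 libraries was left out. It was -2.55 without the first talazoparib library, -2.36 without the second vehicle library and -3.33 without the second combination library. Each of these fits leaves a single library in the reduced condition. The other 9 members had departures between -0.58 (ZBP1) and 0.13 (CGAS) with an edgeR adjusted p of 1, and between -0.39 (ZBP1) and 0.14 (STING1) without that library. For STING1 the departure was 0.05 with an interval from -0.23 to 0.33, and for MAVS 0.01 with an interval from -0.14 to 0.17.

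Because IRF7 is a short gene in a dense region, its neighbours within 50 kb were read in the same libraries. PHRF1, which lies next to it, held 61 and 21 counts in EGI-1 vehicle, 29 and 15 with decitabine, 119 and 520 with talazoparib and 35 and 31 with both. PHRF1 thus moved with IRF7 in the talazoparib libraries, but its 2 libraries differed widely and it did not pass (log2 2.84, SE 0.76, edgeR adjusted p = 0.175 against vehicle, and log2 -3.05, SE 0.78, adjusted p = 0.219 for the combination against talazoparib). For the latter the value was -2.81 (SE 1.17, adjusted p = 0.593) without the second combination library. In HUCCT1 it held 71 and 111 counts in vehicle and 290 and 126 with decitabine (log2 1.14, SE 0.37, edgeR adjusted p = 0.0461). RASSF7 (log2 0.22, adjusted p = 0.487) and DEAF1 (log2 0.13, adjusted p = 0.509) had small values with talazoparib. IRF7 and PHRF1 share no exonic bases in the annotation, and whether transcription across the region plays a part in the IRF7 count was not tested.

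**Figure D4:**
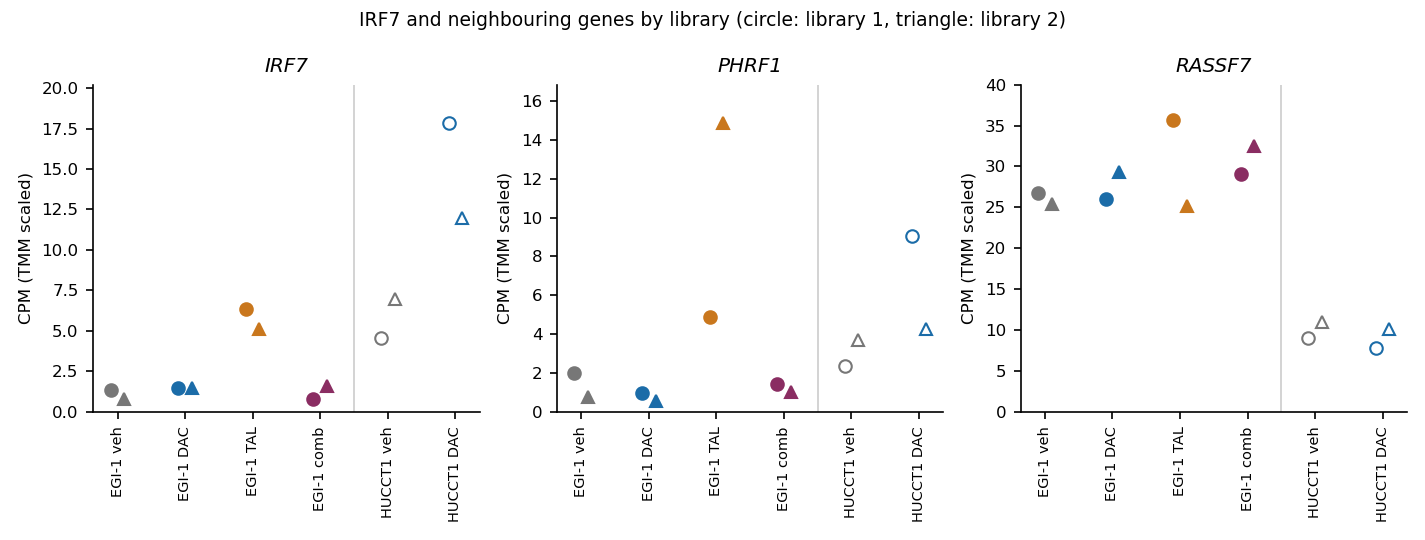
CPM (TMM scaled, linear axes from 0) of IRF7 and 2 neighbouring genes in each of the 12 libraries, circles for library 1 and triangles for library 2. IRF7 and PHRF1 are highest among EGI-1 libraries with talazoparib, where PHRF1 spreads from 119 to 520 counts, while RASSF7 shows no such rise.

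Over the 8 EGI-1 libraries, the genes whose log2 CPM followed IRF7 most closely among 13708 genes compared were PSMA5 (Pearson r = 0.93), UTP14A (0.92), HLCS (0.89), MRPS7 (0.89) and TENM3-AS1 (0.89). The libraries share conditions, so these values only describe likeness. None of the 5 was called with talazoparib, and their log2 changes were 0.07 to 0.23 against 2.43 for IRF7.

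In HUCCT1, the question was what the higher dose of decitabine does to the same genes, with 22479 genes tested over 4 libraries. By edgeR 4 of the 10 genes passed, 2 higher and 2 lower, where 33.5% of all genes were called, 19.6% higher and 13.9% lower, and 22.9% to 27.1% were called when each library was left out. TLR3 fell from 280 and 228 counts (9.23 and 7.54 CPM) to 79 and 54 counts (2.47 and 1.83 CPM), a log2 fold change of -1.97 (SE 0.21, 95% confidence interval -2.41 to -1.53, edgeR adjusted p = 6.04e-08). MAVS, the adaptor of the helicase sensors, fell from 442 and 499 CPM to 292 and 305 CPM (log2 -0.67, SE 0.11, edgeR adjusted p = 2.01e-05). In both genes the vehicle and decitabine libraries did not overlap. How many of all genes separate in this way with 2 libraries a side was not counted. Both calls held in all 12 alternatives.

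IRF7 rose from 138 and 211 counts (4.55 and 6.98 CPM) to 572 and 355 counts (17.9 and 11.998 CPM), a log2 fold change of 1.37 (SE 0.20, 95% confidence interval 0.94 to 1.79, edgeR adjusted p = 2.26e-05). With the replicate number as a block, IRF7 was at 1.36 and was not called (edgeR adjusted p = 0.128). That block added the calls of IFIH1, IRF3 and ZBP1, and no label says that the numbers pair the libraries. STING1 rose from 15.3 and 17.95 CPM to 24.0 and 23.7 CPM (log2 0.51, SE 0.13, edgeR adjusted p = 0.00343). The STING1 call was lost without the first vehicle library (log2 0.39, edgeR adjusted p = 0.0727). The remaining 6 genes did not pass. ZBP1 (1.62 and 2.45 to 3.28 and 3.14 CPM, log2 0.65, SE 0.26, edgeR adjusted p = 0.0515) and IRF3 (log2 0.28, adjusted p = 0.0825) lay close to the threshold, and both were called without the second vehicle library (ZBP1 0.96, adjusted p = 0.0201, and IRF3 0.44, adjusted p = 0.0149). IRF3 was called without the first decitabine library too (0.42, adjusted p = 0.0241), and in the fit of all 12 libraries IRF3 (0.29, adjusted p = 0.0333) and IFIH1 (0.30, adjusted p = 0.0341) were called.

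The RIG-I-like receptors had values on either side of 0. RIGI was at 6.96 and 6.91 CPM in vehicle and at 8.72 and 8.04 CPM with decitabine (log2 0.26, interval -0.08 to 0.61, edgeR adjusted p = 0.243). IFIH1 was at 14.5 and 12.7 and then 17.7 and 15.7 CPM (log2 0.29, interval -0.0035 to 0.58, edgeR adjusted p = 0.124), and DHX58 was at 10.9 and 10.7 and then 9.06 and 9.29 CPM (log2 -0.25, interval -0.56 to 0.06, edgeR adjusted p = 0.221). CGAS had 36.8 and 40.6 CPM before and 32.9 and 40.8 CPM after (log2 -0.08, interval -0.34 to 0.17). This contrast called 19.6% of all genes higher and 13.9% lower. In the same libraries 4 of 6 biliary markers were lower, 5 of 5 endothelial and fibroblast markers tested were higher (summed 32.4 and 34.5 CPM in vehicle, 187 and 219 CPM with decitabine), and 2 of 4 blood markers tested were higher. Their part in the member results was not tested.

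The decitabine effect was then compared between the lines in the 12-library fit, where dose (1 against 0.5 µM), line and lane cannot be told apart. TLR3 and MAVS were called, both lower in HUCCT1, where 15.9% of all 25096 genes were called and 7.2% were called lower. The share of all genes was 9.82% and 9.48% without the first and the second EGI-1 vehicle library. The difference was -1.78 for TLR3 (SE 0.22, edgeR adjusted p = 6.65e-06), whose change in EGI-1 was -0.17, and -0.70 for MAVS (SE 0.10, edgeR adjusted p = 3.9e-05), whose change in EGI-1 was 0.05. These 2 calls held in all 15 alternatives. For IRF7, called in HUCCT1 and not in EGI-1, the difference between the lines was 0.93 (SE 0.46, interval -0.05 to 1.91), given as a description, and for STING1 it was 0.31 (SE 0.15, edgeR adjusted p = 0.188). Neither gene is therefore shown to respond differently in the 2 lines.

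The genes around the sensors were read from 8 lists with 149 genes, written with earlier results of these data known. In the EGI-1 combination 116 of the listed genes were tested, and 31 were higher (26.7%) and 5 lower (4.31%) by edgeR, against 11.1% and 7.61% of all genes. The counts were 23 and 5 without the second combination library, 27 and 4 without the first, 18 and 4 without the first vehicle library and 20 and 3 without the second. Fewer of all genes were called in these fits too, 6.88% higher and 3.85% lower without the second combination library, 8.19% and 4.28% without the first, 5.38% and 2.92% without the first vehicle library and 5.18% and 2.58% without the second. These shares are the background of every list count given below for the same library left out. With talazoparib alone 8 were higher (6.9%, against 2.83% of all genes) and 0 lower, and with decitabine alone 3 (2.59%, against 0.518% of all genes) and 0. In HUCCT1 with decitabine 24 were higher (20.3%) and 23 lower (19.5%) of 118 tested, against 19.6% and 13.9% of all genes, with 17 to 21 higher and 16 to 19 lower when each library was left out, in fits that called 14.2% to 16.1% of all genes higher and 8.72% to 11.1% lower. The share of higher genes in HUCCT1 is thus near that of all genes, and the difference between these splits, which come from different drugs, lines and doses, was not tested.

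Among 12 other nucleic acid sensors tested in the EGI-1 combination, 1 rose and 1 fell (median log2 0.03 against -0.02 over all genes), 2 and 1 without either combination library, in a contrast that called 11.1% of all genes higher and 7.61% lower. ZNFX1, an RNA helicase of the mitochondrial surface, rose by 0.33 (edgeR adjusted p = 0.000592) and DHX9, an RNA helicase, had a log2 change of -0.28 (adjusted p = 0.00242). The DNA sensors IFI16 (log2 -0.24, adjusted p = 0.0756) and AIM2 (log2 0.78, adjusted p = 0.0539) did not pass. NLRP1, an inflammasome sensor, had 1 and 0 counts in vehicle and 15 and 185 in the combination, the higher value in the library with leukocyte transcripts. It was not called over all libraries and was called without that library (edgeR adjusted p = 0.0119), and no fold is given because vehicle is at the floor of 3 counts. Without that library ZNFX1 was at 0.34 (adjusted p = 0.00699), DHX9 at -0.32 (adjusted p = 0.00984), IFI16 at -0.29 (adjusted p = 0.125) and AIM2 at 0.69 (adjusted p = 0.224). In HUCCT1, where 19.6% of all genes were called higher and 13.9% lower, 2 of 11 rose and 3 fell (median log2 -0.21), and 1 rose and 1 to 3 fell with each library left out. There NLRP1 rose from 108 and 138 to 838 and 711 counts (log2 2.62, edgeR adjusted p = 1.18e-12), and DDX60 (-0.47, adjusted p = 0.00979) and DHX9 (-0.42, adjusted p = 0.0041) were lower.

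Of 12 effectors and editors of double-stranded RNA in the EGI-1 combination, 3 rose and 1 fell (median log2 0.06), and 1 rose and 1 fell without the second combination library or without either vehicle library. The contrast called 11.1% of all genes higher. OAS2, which binds double-stranded RNA and makes short oligoadenylates, went from 59 and 54 counts in vehicle to 98 and 187 (log2 1.39, SE 0.22, edgeR adjusted p = 0.000245, and 1.04 with an adjusted p of 0.0102 without that library). ADARB1, an RNA-editing enzyme, and OAS1 rose by 0.45 (edgeR adjusted p = 0.0111, and 0.0795 without that library) and 0.40 (adjusted p = 0.0374, and 0.173 without that library). EIF2AK2, the kinase PKR, and ADAR did not pass, at log2 changes of -0.18 and -0.08 (edgeR adjusted p = 0.184 and 0.33), and at -0.22 and -0.08 without that library (adjusted p = 0.234 and 0.498). In HUCCT1 3 of 13 rose and 3 fell (median log2 0.08, background 19.6% and 13.9%), and 2 to 3 rose and 1 to 3 fell with each library left out. The called genes include SLFN11 (26 and 28 to 100 and 82 counts, log2 1.71, adjusted p = 4.32e-05) and ADARB1 (1.02, adjusted p = 2.62e-07). SLFN11 was counted in this list although it is not an established effector or editor of double-stranded RNA. EIF2AK2 was lower there by -0.75 (adjusted p = 1.14e-05), and ADAR was at -0.01 (adjusted p = 0.933).

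The kinases and adaptors below the sensors had 7 of 22 genes higher and 1 lower in the EGI-1 combination (median log2 0.08), where 11.1% of all genes were called higher. The counts were 4 and 1 without the second combination library, 3 and 1 without the first, 3 and 1 without the first vehicle library and 3 and 0 without the second. TICAM1, the adaptor that TLR3 uses, rose from 44.9 and 45.8 CPM in vehicle to 81.9 and 78.2 CPM (log2 0.81, SE 0.070, edgeR adjusted p = 3.5e-07), while its receptor TLR3 was lower in the same libraries. TBKBP1, which binds the kinase TBK1, rose from 47 and 54 to 190 and 223 counts (log2 2.11, SE 0.22, edgeR adjusted p = 2.92e-06), and RIPK3, the kinase through which ZBP1 acts, rose by 0.81 (SE 0.26, adjusted p = 0.0405). The kinases that phosphorylate IRF3 and IRF7 did not pass: TBK1 was at -0.18 (adjusted p = 0.155) and IKBKE at -0.03 (adjusted p = 0.785). Without the second combination library TICAM1 was at 0.85 (adjusted p = 9.51e-06), TBKBP1 at 2.15 (adjusted p = 5.82e-05), RIPK3 at 1.05 (adjusted p = 0.0303), TBK1 at -0.12 (adjusted p = 0.556) and IKBKE at -0.03 (adjusted p = 0.844). In HUCCT1 2 of 23 rose and 2 fell (median log2 0.02), below the background of 19.6% and 13.9%, and 2 to 3 rose and 1 to 2 fell with each library left out. IKBKE went from 92.2 and 107 CPM to 208 and 202 CPM there (log2 1.03, edgeR adjusted p = 4.29e-08), TBKBP1 rose by 1.54 (adjusted p = 3.47e-08), FADD was at -0.64 (adjusted p = 0.000569), and TBK1 (0.10, adjusted p = 0.528) and TICAM1 (0.29, adjusted p = 0.0537) did not pass.

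Ubiquitin ligases and other regulators had 5 of 16 genes higher and 0 lower in the EGI-1 combination (median log2 0.13, background 11.1% higher), 4 and 0 without either combination library and 3 and 0 without either vehicle library, led by TNFAIP3 (0.72, edgeR adjusted p = 8.63e-07), a brake on these pathways. STIM1 (0.50, adjusted p = 1.05e-05) and CYLD (0.49, adjusted p = 0.00106) were the others with the largest rise. These 3 were, without the second combination library, at 0.68 (adjusted p = 4.61e-05), 0.51 (adjusted p = 0.000239) and 0.34 (adjusted p = 0.0362). In HUCCT1 4 of 16 were higher and 2 lower (median log2 -0.01, background 19.6% and 13.9%), and 2 were higher and 2 lower with any library left out. TNFAIP3 went from 172 and 187 CPM to 779 and 756 CPM there (log2 2.09, edgeR adjusted p = 5.92e-14), and USP18 rose by 0.73 (adjusted p = 0.0402) and CYLD by 0.51 (adjusted p = 0.00223).

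Enzymes that clear nucleic acids, the supply side of the sensors, had 1 of 11 genes higher and 2 lower in the EGI-1 combination (median log2 0.13), 0 and 2 without the second combination library, 1 and 1 without the first and 0 and 1 without either vehicle library. The contrast over all libraries called 11.1% and 7.61% of all genes. SAMHD1, a deoxynucleotide hydrolase, rose by 0.35 (edgeR adjusted p = 0.00501, and 0.26 with an adjusted p of 0.0973 without the second combination library), while BANF1 (-0.32, adjusted p = 0.00104), which shields DNA from cGAS, and the RNase H2 subunit RNASEH2B (-0.30, adjusted p = 0.00871) were lower, at -0.31 (adjusted p = 0.0146) and -0.34 (adjusted p = 0.0297) without that library. In HUCCT1 2 of 10 were higher and 3 lower (median log2 -0.07, background 19.6% and 13.9%), with SAMHD1 at 0.56 (adjusted p = 0.000422), RNASEH2A at -0.84 (adjusted p = 0.0406) and RNASEH2B at -0.56 (adjusted p = 0.000784). TREX1, the cytosolic DNA exonuclease, is listed at 0 in all 12 libraries. How reads that match several genes were handled is not stated, so the 0 does not show that its transcript is absent.

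Other interferon regulatory factors and the interferon receptor pathway had 5 of 16 genes higher and 0 lower in the EGI-1 combination (median log2 0.13, background 11.1% higher), 4 and 0 without the second combination library. IRF5 (0.65, edgeR adjusted p = 0.00767, and 0.60 with an adjusted p of 0.0654 without that library) and SOCS3 (0.59, adjusted p = 9.1e-06) rose. STAT2 rose by 0.49 (adjusted p = 8.6e-05), while its partner IRF9 (0.23, adjusted p = 0.559) and IRF1 (-0.04, adjusted p = 0.747) did not pass. Without the second combination library SOCS3 was at 0.54 (adjusted p = 0.000432), STAT2 at 0.54 (adjusted p = 0.000716), IRF9 at 0.57 (adjusted p = 0.152) and IRF1 at -0.03 (adjusted p = 0.87). In HUCCT1 4 of 15 were higher and 0 lower (median log2 0.10, background 19.6% and 13.9%): SOCS1 by 1.66 (adjusted p = 2.06e-07), SOCS3 by 0.90 (adjusted p = 5.72e-07), JAK1 by 0.44 (adjusted p = 0.00204) and IRF1 by 0.36 (adjusted p = 0.0146). STAT2 (0.26, adjusted p = 0.0664) and IRF9 (-0.14, adjusted p = 0.756) did not pass there.

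The end product of these routes was barely counted. Of 21 type I and type III interferon genes, 14 were at 0 counts in all 8 EGI-1 libraries and 19 had 3 counts or fewer in each, while IFNE and IFNK exceeded 3. IFNB1, the main target of IRF3, had 0 to 1 counts in EGI-1 and 0 to 2 in HUCCT1, and IFNL1 was at 0 in every EGI-1 library. In HUCCT1 9 interferon genes were at 0 in all 4 libraries and 17 had 3 counts or fewer, and IFNL1 went from 0 and 0 to 7 and 3 counts, below the filter. IFNE, which epithelia make without infection, went from 207 and 140 to 60 and 45 counts with decitabine (log2 -1.76, edgeR adjusted p = 3.68e-06), and IFNA1 from 33 and 28 to 16 and 11 (log2 -1.21, edgeR adjusted p = 0.0341). In neither line was induction of IFNB1 detectable at this depth at 72 h.

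Interferon-stimulated readout genes had 9 of 26 higher and 0 lower in the EGI-1 combination (median log2 0.23 against -0.02 over all genes, background 11.1% higher), 8 and 0 without the second combination library and 6 and 0 without the first vehicle library. IFI6 rose from 67 and 71 counts in vehicle to 169 and 197 (log2 1.49, SE 0.17, edgeR adjusted p = 9.8e-06), BST2 by 0.79 (adjusted p = 0.00465) and IFITM2 by 0.77 (adjusted p = 0.00083). They were, without the second combination library, at 1.53 (adjusted p = 0.00015), 0.90 (adjusted p = 0.0117) and 0.81 (adjusted p = 0.00595). In HUCCT1 the same list had 7 of 27 higher and 8 lower (median log2 -0.04, background 19.6% and 13.9%). HERC5 went from 3 and 4 to 35 and 23 counts (log2 2.97, edgeR adjusted p = 0.00028), MX2 rose by 2.28 (adjusted p = 4.96e-09) and IFI44L by 1.40 (adjusted p = 0.0442). IRF7 is an interferon-stimulated gene as well, and it was near its vehicle level in the EGI-1 combination, in which 9 of these readout genes were called higher.

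**Figure D5:**
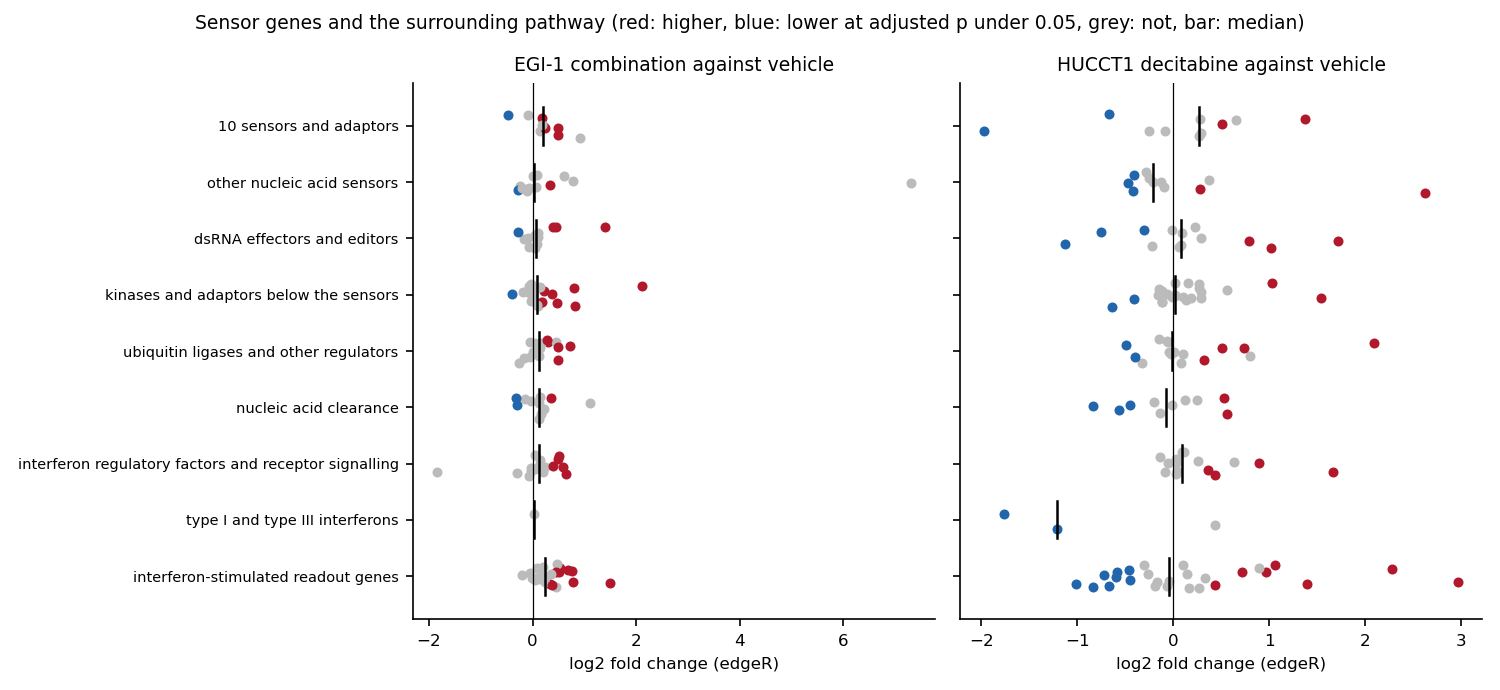
Log2 fold change (edgeR) of the 10 sensors and adaptors and of the tested genes of 8 surrounding lists, 1 point per gene with bars for the list median, for the EGI-1 combination (left) and HUCCT1 decitabine (right), in red for higher and blue for lower at an adjusted p under 0.05. The EGI-1 combination has 31 higher and 5 lower among the listed genes, HUCCT1 decitabine 24 and 23, and the point at the far right of the left panel is NLRP1, with 15 and 185 counts, which was not called over all libraries and was called without the second combination library.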

How the data were processed

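Gene-level counts, raw and without normalization, are what the authors deposited for 12 bulk RNA-seq libraries. The table holds 60651 genes, of which 60481 were matched to a symbol and 170 were not. The methods name fastp, STAR on GRCh38, RSEM and DESeq2 and describe EGI-1 alone, whereas the submitters' processing notes name fastp, Trim Galore, HISAT2 and featureCounts on GRCh38. Which of these made the table, the use of the strand and the handling of reads that match several genes are not given in the sources used here. The methods name a stranded total RNA kit with ribosomal depletion and a column kit, and the labels name Trizol. Names of the talazoparib libraries carry "T50" where labels and methods give 200 nM. HUCCT1 and EGI-1 libraries carry different lane tags.

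Totals ran from 23139065 to 34965627 counts, and between libraries of a condition the chi-square per gene was 2.73 to 12.6, so none was a copy. The test was edgeR's (version 4.0.16 under R 4.3.3; filterByExpr by condition, TMM, robust quasi-likelihood fit), in 1 fit per line and, between lines, 1 fit of 12 libraries. Benjamini-Hochberg adjustment ran over all genes tested, and an adjusted p under 0.05 was a call. The authors' methods use DESeq2, which was run here as version 1.42.0 among the alternatives, beside DESeq2 size factors, upper-quartile scaling, no filter, a filter of 1 CPM in 2 libraries, a non-robust fit, fits of fewer or more libraries, replicate blocks and each library left out. Pathway lists were recounted under the same alternatives, a choice made after seeing the data. The procedure was tested on simulated data with known changes. Members and lists were chosen with earlier results of these data known. All members are named, and of each list at most 3 called genes per comparison with the largest absolute change, together with IFNB1, IFNL1, TBK1, IKBKE, TICAM1, EIF2AK2, ADAR, TREX1, SAMHD1, IFI16, AIM2, STAT2, IRF1 and IRF9. Some genes this rule covers are not reported here. NLRP1 in EGI-1 and the neighbours of IRF7 were described after their values were seen.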

Additional observations from a re-analysis of the deposited data

Results flagged for a closer look

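The effect of decitabine on 2 members differed between the lines by an interaction test. For TLR3 the difference of HUCCT1 minus EGI-1 was -1.78 on the log2 scale (SE 0.22, edgeR adjusted p = 6.65e-06). For MAVS the difference was -0.70 (SE 0.10, edgeR adjusted p = 3.9e-05). Line, medium, lane and dose cannot be told apart in these differences.

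The effect of talazoparib on IRF7 differed between EGI-1 cells with and without decitabine by -2.70 on the log2 scale (SE 0.44). This departure is the reason IRF7 was among the genes chosen, so the value is a description with no test. Leaving out the first talazoparib library gave -2.55 and leaving out the second vehicle library gave -2.36, each with a single library in the reduced condition. IRF7 was highest in 2 of 2 talazoparib libraries.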

How the results depend on the processing

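Of 119 counts of called members recomputed under the alternatives, 109 stayed within 1.5 times the reported count. For talazoparib against vehicle, a fit of only the 4 libraries compared called IRF3 beside IRF7, and 8.7% of all genes. In every count of this section that uses EGI-1 libraries, IRF7 is a description. For the combination against vehicle, upper-quartile scaling called 2 in place of 5, and leaving out each library in turn gave 1 to 1. For the combination against decitabine, the count was 1 without a filter on low counts (STING1, edgeR adjusted p = 0.0498) and 0 to 3 with each library left out. For the departure from the sum, the value of IRF7 was between -3.33 and -2.31 with each library left out, as a description. Of the member values, 0 changed direction among called ones, 28 lost a call, 18 gained one, and 33 that were not called changed sign and stayed uncalled. With these counts, changes in IRF7 and ZBP1 in EGI-1 are known least precisely, and 2 libraries per condition limit every interval.

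In EGI-1, libraries of the same number deviated from their condition means with correlations between -0.27 and 0.20, and in HUCCT1 the single pair correlated at 0.29. These values do not settle whether the numbers pair the libraries. The EGI-1 library names hold a lettered and a numbered series, which cross the title numbers in vehicle only, and correlations by series had the same range. With the replicate number as a block, the combination against vehicle called 4 members in place of 5, without DHX58, and HUCCT1 decitabine called 6 in place of 4, while the share of all genes called went from 33.5% to 45.1%. In HUCCT1 the block added IFIH1, IRF3 and ZBP1 and left IRF7 at 1.36 with an edgeR adjusted p of 0.128.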
